A study of Mus musculus with 502 samples.

Results

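Silencers listed around 14 neuronal genes known as targets of the repressor REST were described in 3 non-neuronal human cell lines. A silencer belonged to the set when its midpoint fell inside 1 of 15 fixed hg38 windows of 0.5 to 0.8 Mb, 8.65 Mb in all. The windows were laid around SCN2A, STMN2, SNAP25, BDNF, GAD1, NEFM, GRIA2, KCNH2, CELSR3, CHRNB2, UNC13A, SYT4, VGF and GRIN1. The remaining window, on chromosome 15, has no gene in the member list and is called by its chromosome. The rule found 1654 of 397136 silencers: 478 of 125249 in 293T, 586 of 134159 in K562 and 590 of 137728 in LNCap.

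293T is a line from embryonic kidney, K562 a leukaemia line with erythroid features and LNCap a prostate cancer line. Each was transfected with a plasmid library of sheared genomic DNA, and Ss-STARR-seq compared the RNA made from the plasmids (output) with the plasmid DNA (input). The labels list 461 output and 41 input libraries over the 3 lines. Of the inputs, 1 is from 293T and 40 are from LNCap, and no K562 input is among them. The labels do not say what the K562 output was compared with. Likeness or difference between the lists therefore cannot be told apart from an effect of the inputs. The labels name mouse as the organism, while the lines and the build are human. The deposited data hold 1 silencer list per line, with no replicate list and no read counts, so a difference between lines has no replicate check and the depth behind a silencer is unknown. All intervals below are 95% intervals that cover counting error only. They treat each silencer as independent, although silencers of a list often lie close together, so they can be too narrow.

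REST is a zinc finger protein that binds a DNA element named RE1 and recruits histone deacetylase complexes. It keeps neuronal genes silent in cells that are not neurons, and its loss during neuronal differentiation lets these genes be expressed. The assay tests fragments on a plasmid, away from their own chromosome. A listed silencer is therefore a fragment with silencing activity in the reporter, and neither REST binding nor gene expression was measured. The windows also hold genes other than the members, and no silencer was assigned to a gene. Gene coordinates and human sequence were not used here, so RE1 elements, exons and promoters were not analysed.

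Silencers were denser in the windows than over the genome in all 3 lists. Their density was 55.3 per Mb for the 293T list, with an exact Poisson interval of 50.4 to 60.4. It was 67.7 for K562 (62.4 to 73.5), whereas the LNCap list had 68.2 (62.8 to 73.9). Over the whole lists the densities were 40.6, 43.5 and 44.6 per Mb, which makes the windows 1.36, 1.56 and 1.53 times as dense. UNC13A, VGF and CELSR3 carried much of this difference. Without those windows, which were picked after their counts were seen, the windows were 1.21, 1.18 and 1.17 times as dense. The median window held 47.3, 57.3 and 58.2 silencers per Mb, and 10, 10 and 11 of the 15 windows lay above the median tile of the same length in 293T, K562 and LNCap. A tile is 1 of the adjoining stretches of equal length laid along chromosomes 1 to 22 and X.

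**Figure D1:**
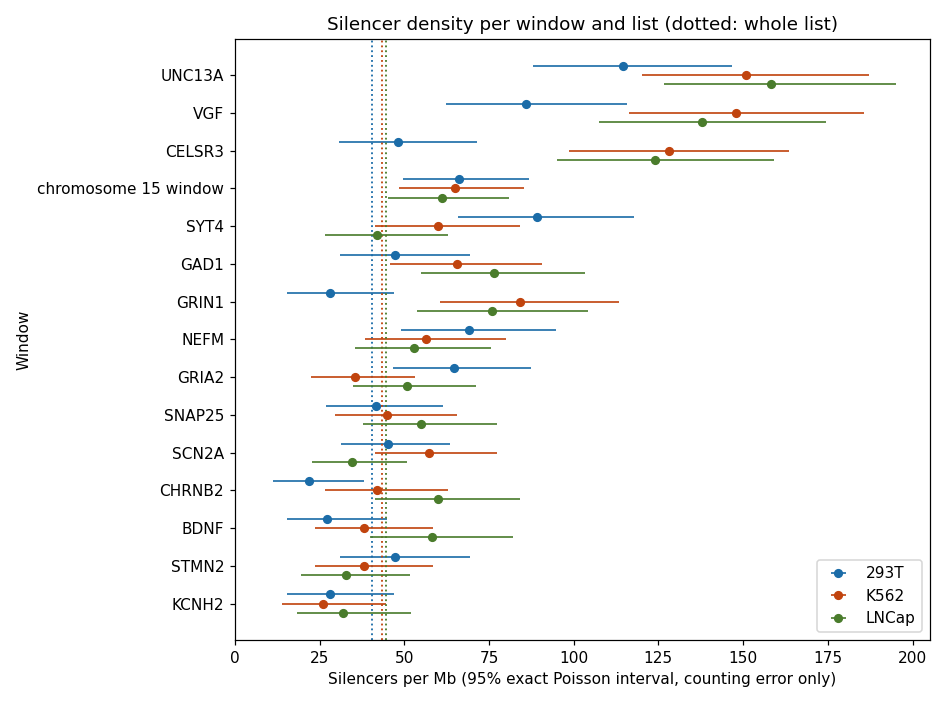
Silencers per Mb (horizontal axis) in each of the 15 windows (vertical axis, ordered by the mean of the lists), with 1 point per list and 95% exact Poisson intervals; dotted lines mark the whole lists at 40.6, 43.5 and 44.6 per Mb. The UNC13A and VGF windows lie highest in all 3 lists except that SYT4 passes VGF in 293T, and the KCNH2 window is low in all 3.

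Among the genes of synaptic vesicle release, the UNC13A window on chromosome 19 was the fullest of the 15. UNC13A primes vesicles for fusion. Its window held 63 (293T), 83 (K562) and 87 (LNCap) silencers, or 114.5, 150.9 and 158.2 per Mb. More silencers were counted there than in 99.9% of the 5235 tiles of that length in each list. SYT4, a synaptotagmin of secretory vesicles on chromosome 18, had the opposite order of lines. 293T had 49 silencers in its window, K562 had 33 and LNCap 23, more than 98.8%, 78.03% and 45.9% of tiles. The window of SNAP25, a SNARE protein of the nerve terminal, held 25, 27 and 33 silencers. These densities, 41.7, 45 and 55 per Mb, have intervals that overlap one another and the densities of the whole lists.

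Of the transmitter receptor windows, GRIN1 and CHRNB2 had their lowest counts in 293T and GRIA2 its highest. GRIN1 encodes the obligatory subunit of NMDA receptors, and its window on chromosome 9 held 14 silencers of 293T but 42 of K562 and 38 of LNCap. The 293T interval (15.3 to 46.98 per Mb) did not overlap those of K562 (60.5 to 113.5) and LNCap (53.8 to 104.3). CHRNB2 encodes a nicotinic acetylcholine receptor subunit. Its window on chromosome 1 held 12, 23 and 33 silencers, and 8.73% of tiles had a lower 293T count. GRIA2, an AMPA receptor subunit on chromosome 4, had 42 silencers for 293T, 23 for K562 and 33 for LNCap. The 293T density there, 64.6 per Mb (46.6 to 87.3), and the K562 density, 35.4 per Mb (22.4 to 53.1), have overlapping intervals.

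Of the ion channel windows, KCNH2 was sparse in all 3 lists. SCN2A lay above the whole-list density in K562 and below it in LNCap. The window of KCNH2, a potassium channel of heart and nerve on chromosome 7, had the fewest silencers over the 3 lists together: 14 for 293T, 13 for K562 and 16 for LNCap. These counts exceeded 17.6%, 13.8% and 24.01% of tiles of that length. The window of SCN2A, a sodium channel of axons on chromosome 2, held 34, 43 and 26 silencers. K562 was highest there at 57.3 per Mb (41.5 to 77.2) and LNCap lowest at 34.7 per Mb (22.7 to 50.8), with overlapping intervals.

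Among the axonal and cytoskeletal genes, CELSR3 had far fewer 293T silencers than those of the other lines, and NEFM and STMN2 did not. CELSR3, an atypical cadherin that guides axons, lies in a window on chromosome 3 with 24 silencers (293T), 64 (K562) and 62 (LNCap). The K562 and LNCap counts passed 99.03% and 98.4% of tiles, and the 293T count 60.8%. NEFM, the medium neurofilament chain, and STMN2, a regulator of axonal microtubules, both lie on chromosome 8. NEFM had 38, 31 and 29 silencers and STMN2 had 26, 21 and 18, so that 293T had the highest count at both. The intervals of the 3 lists overlap within each of these chromosome 8 windows.

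VGF, the precursor of secreted neuropeptides, lies in a window on chromosome 7 with 43 (293T), 74 (K562) and 69 (LNCap) silencers. These counts lie above 98.1%, 99.8% and 99.2% of tiles. BDNF, a secreted growth factor of neurons on chromosome 11, had 15, 21 and 32 silencers. The 293T count there exceeded 16.2% of tiles and the LNCap count 74.2%. GAD1 makes the transmitter GABA, and its window on chromosome 2 held 26, 36 and 42 silencers. The chromosome 15 window was the most even of the set, with 53, 52 and 49 silencers.

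With each count taken as a share of its list, the 293T list put 0.882 times as large a share into the windows as the mean of the other lists (exact binomial interval 0.792 to 0.982). The ratio was 1.08 for K562 (0.971 to 1.19) and 1.05 for LNCap (0.943 to 1.16). These values depended on 3 windows: without UNC13A, VGF and CELSR3 they were 1.02, 0.993 and 0.982. In 3 of 15 windows the 293T share fell under 0.5 times that mean, CELSR3 (0.413), CHRNB2 (0.466) and GRIN1 (0.380). Of 5103 tiles of 0.55 Mb with at least 20 silencers, 3.76% were that low in 293T. Ratios of 293T above 1 were found in 7 windows, led by SYT4 (1.90, interval 1.27 to 2.84) and GRIA2 (1.63, 1.06 to 2.47). The median tile had a 293T ratio of 1.018, so a ratio above 1 was common among tiles. None of the 15 windows was over 2 times in 293T (3.82% of tiles), K562 (0.49%) or LNCap (0.745%). None was under 0.5 times in K562 (2.18% of tiles) or LNCap (3.29%). At looser folds, 293T was over 1.5 times in 2 windows (16.2% of tiles) and under 0.67 times in 5 (14.3%). K562 was over in 1 (5.57%) and under in 1 (10.3%), and LNCap was over in 2 (7.43%) and under in 2 (13.1%). Among silencers above the list's median score, 293T was under 0.5 times in 5 windows (10.4% of tiles) and LNCap over 2 times in 2 (4.23%). The highest K562 ratio was 1.61 at GRIN1 and the lowest 0.596 at GRIA2. LNCap ranged from 0.524 at SYT4 to 1.79 at CHRNB2.

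**Figure D2:**
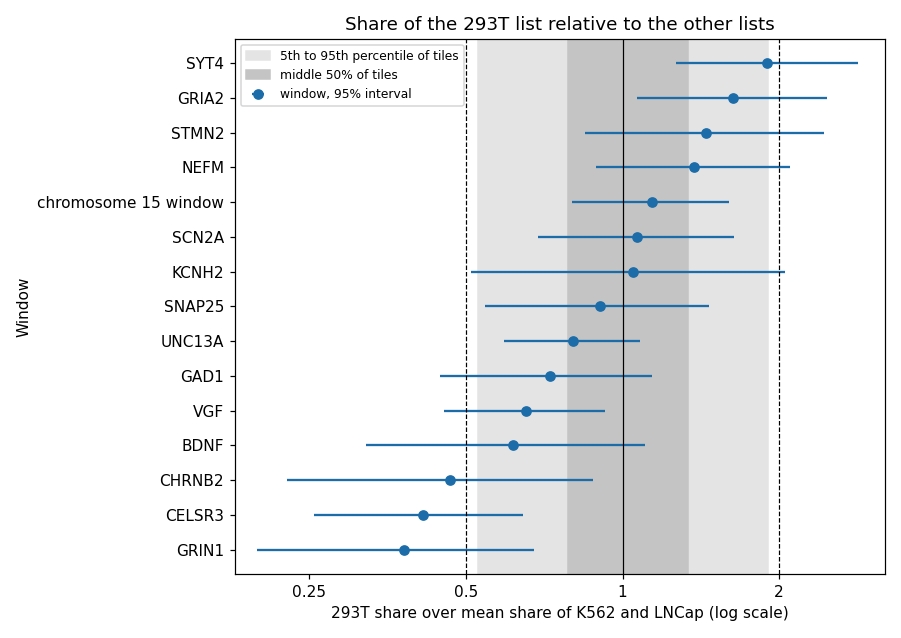
Share of the 293T list in each window (vertical axis) divided by the mean share of K562 and LNCap (horizontal axis, log scale), with exact binomial intervals; grey bands show the spread over 5103 tiles and dashed lines the ratios of 0.5 and 2. GRIN1, CELSR3 and CHRNB2 lie under 0.5 and SYT4 at 1.90 is highest.

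Across the 15 windows, the densities of K562 and LNCap ranked more alike (Spearman rho 0.82) than those of 293T and K562 (0.53) or 293T and LNCap (0.28). Over 5103 tiles these values were 0.75, 0.55 and 0.49. Windows and tiles are positions within the same 3 lists and not replicates.

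In the 3 windows with a 293T ratio under 0.5, long stretches held no 293T silencer. These windows were picked for a low 293T share, which can by itself favour long empty stretches. The tiles given beside them were not matched for silencer count. Window edges counted as ends of a stretch. At CHRNB2 the longest such stretch was 202 kb for 293T, 77.4 kb in K562 and 60.3 kb in LNCap. The 293T stretch there ran from the last silencer, at 73.376 kb from the centre, to the window edge. At GRIN1 it was 195, 78.04 and 58.2 kb. CELSR3 had one of 164.2 kb in 293T against 46.4 and 72.1 kb. The median longest stretch in 0.5 Mb tiles was 91.7 kb for 293T, and 11.0% of those tiles had one longer than at CELSR3 and 6.92% one longer than at GRIN1. In 0.55 Mb tiles, 6.80% had a longer one than CHRNB2. At BDNF and KCNH2, where 293T had 15 and 14 silencers, the longest stretches were 96.9 and 90.1 kb, near the tile medians of 94.7 and 91.7 kb. SNAP25, with a 293T ratio of 0.9055, had longest stretches of 130.8 kb in 293T, 145.9 kb in K562 and 70.2 kb in LNCap. In the middle 200 kb of the CELSR3 window there was 1 silencer in 293T, against 19 in K562 and 24 in LNCap. The same middle stretch held 7, 15 and 7 at GRIN1, where 293T equalled LNCap, and 6, 9 and 14 at CHRNB2. It held 10, 28 and 28 at VGF and 24, 26 and 38 at UNC13A.

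**Figure D3:**
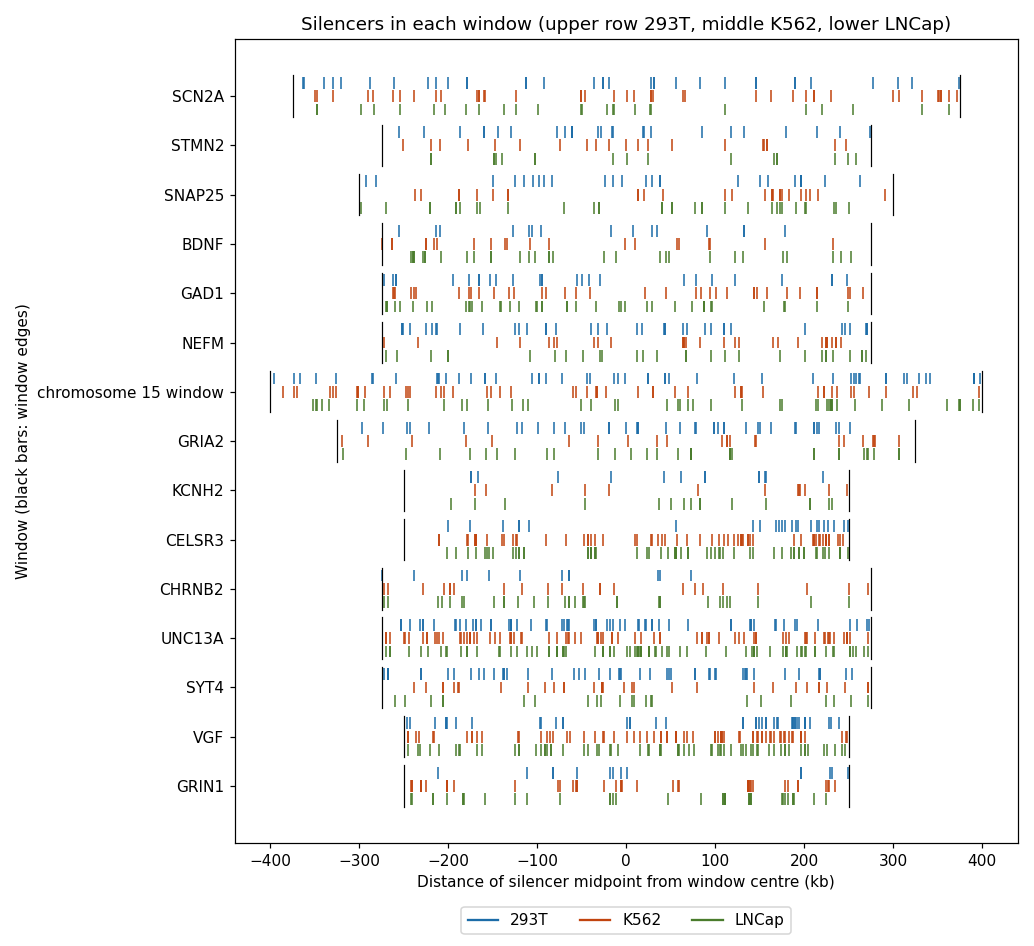
Midpoints of all 1654 silencers by distance from the centre of their window in kb (horizontal axis), with 1 row per list in each window (vertical axis) and black bars at the window edges. The CELSR3, CHRNB2 and GRIN1 rows of 293T show long empty stretches of 164.2, 202 and 195 kb, while UNC13A is filled in all 3 lists.

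The counts did not resolve whether silencers gather at the window centres. Within 50 kb of the centre the 15 windows together held 61.3 silencers per Mb for 293T (49.4 to 75.2), 64.7 for K562 (52.4 to 78.9) and 77.3 for LNCap (63.9 to 92.8). At 200 to 250 kb from the centre they held 51.3 (40.5 to 64.2), 87.3 (73.02 to 103.6) and 74 (60.9 to 89.1). The intervals of these inner and outer parts overlap in each list. K562 was lowest at 50 to 100 kb, with 58 per Mb (46.5 to 71.5). That interval does not overlap the K562 interval at 200 to 250 kb. This sets the lowest K562 step against the highest. The steps pool the 15 windows, so dense windows such as UNC13A and CELSR3 weigh more, and single windows were not profiled. In 293T and LNCap the step within 50 kb was the highest, but the intervals of all 50 kb steps up to 250 kb overlap. A modest gathering therefore cannot be told apart from none. Single silencers lay close to a centre in several windows. At STMN2, a K562 silencer with a score of 3.4 (79624291 to 79624441) lay at -0.634 kb from it, and the nearest LNCap silencer at 0.851 kb. At VGF, a 293T silencer (101150751 to 101151001, score 2.5) and a K562 silencer (101151021 to 101151171, score 2.6) lay 0.876 and 1.096 kb from the centre without overlapping. The nearest 293T silencer at CELSR3 was 55.5 kb away.

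The activity scores, which are the authors' own values per silencer, were like those of the whole lists. The median score was 2.3 in 293T, 2.2 in K562 and 2.3 in LNCap, against 2.3, 2.2 and 2.2 over the lists. Finite scores of 4 and above were given to 9 silencers of 293T (1.88%, Wilson interval 0.994 to 3.54), 11 of K562 (1.88%, 1.05 to 3.33) and 14 of LNCap (2.37%, 1.42 to 3.94). The shares over the whole lists were 2.71%, 1.56% and 2.17%, within those intervals. A K562 silencer at GRIA2 (157541261 to 157541311) had an infinite score. Widths of exactly 50 bp made up 61.7%, 61.3% and 61.5% of the window silencers, and 64.5%, 58.7% and 60.6% of the lists.

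The highest finite score of the set, 7.4, belonged to a LNCap silencer of the chromosome 15 window (26774751 to 26774801), and 0.0392% of the LNCap list scored higher. Next came a LNCap silencer at SNAP25 on chromosome 20 (10219651 to 10219701) with 7.3. Neither overlapped a silencer of another list, and the nearest K562 midpoint was 43250 bp from the SNAP25 silencer. For 293T, which has no infinite score here, the highest was 5.8 at GRIN1 on chromosome 9 (137346251 to 137346301), also without overlap. The highest finite K562 score was 5.3, at UNC13A (17825801 to 17825851). Some strong silencers were found in both K562 and LNCap. At UNC13A the interval from 17769029 to 17769200 was listed with the same ends in both, scoring 4.7 in K562 and 5.5 in LNCap. A LNCap silencer there (17457251 to 17457301) scored 5.6 and overlapped a K562 silencer scoring 3.6. At SNAP25 a K562 silencer scoring 5 (10081707 to 10081757) overlapped a LNCap silencer scoring 2. At CHRNB2 a K562 silencer scoring 4.7 (154376851 to 154376901) lay within a LNCap silencer scoring 2.4. Other strong silencers were shared with 293T. At UNC13A the interval from 17396650 to 17396701 had the same ends in 293T (2.8) and K562 (4.7). A 293T silencer at CELSR3 (48899881 to 48899981, score 4.7) overlapped a LNCap silencer scoring 3.2. One at SYT4 (43164271 to 43164371, score 4.2) overlapped a K562 silencer scoring 2.4. Scores of different lists are given side by side and were not compared.

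Sharing between lists in the windows was close to that of the whole lists. Of 586 K562 silencers, 17.6% overlapped a LNCap silencer by at least 1 bp (Wilson interval 14.7 to 20.9), beside 15.7% of the whole list. Of 590 LNCap silencers, 17.1% overlapped K562 (14.3 to 20.4), beside 15.4%. The 293T silencers overlapped K562 in 19 of 478 cases (3.97%, 2.56 to 6.12, beside 3.3%) and LNCap in 21 (4.39%, 2.89 to 6.62, beside 3.58%). K562 silencers overlapped 293T in 3.24% (whole list 3.03%) and LNCap silencers in 3.56% (3.23%). All 6 whole-list shares lie within the intervals of the windows. Without UNC13A, VGF and CELSR3, 5 of the 6 shares were below those of the whole lists. K562 and LNCap shared silencers in all 15 windows, from 1 of 21 K562 silencers at STMN2 to 17 of 64 at CELSR3. Overlap of 293T with K562 was found in 8 windows and of 293T with LNCap in 11. The share of tiles with any such overlap was not counted, for these pairs or for K562 with LNCap. At BDNF and KCNH2 no 293T silencer overlapped either list. These are 0 of 15 and 0 of 14 silencers, which allow shares of up to 20% and 21.4%.

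**Figure D4:**
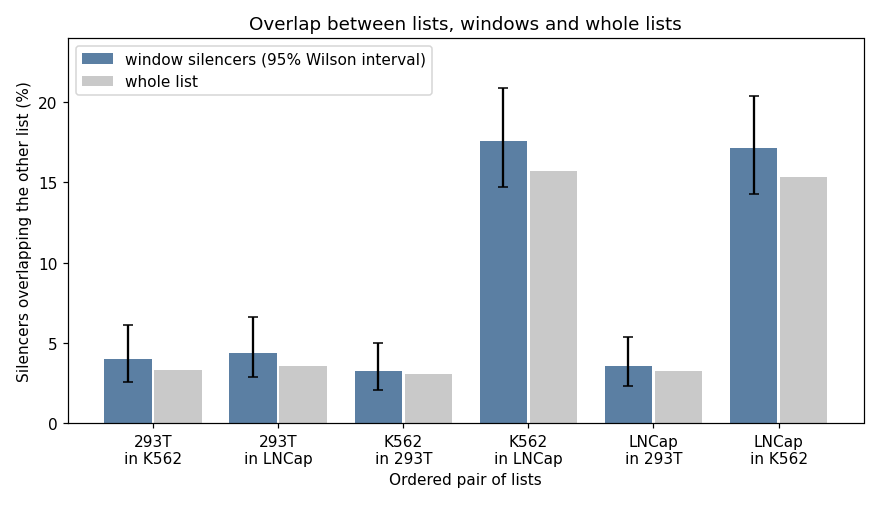
Percent of silencers that overlap the other list by at least 1 bp (vertical axis) for the 6 ordered pairs of lists (horizontal axis), in the windows with 95% Wilson intervals and over the whole lists. Each whole-list share lies within the interval of the windows, with K562 and LNCap at 17.6% and 17.1% against 15.7% and 15.4%.

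Merging overlapping silencers of the 3 lists gave 1512 regions in the windows. Of these, 7 were held by all 3 lists (0.463%, Wilson interval 0.224 to 0.953), against 0.372% of the 367012 regions of the genome. VGF had 3 of them, and GAD1, GRIA2, SCN2A and UNC13A had 1 each. At GAD1 the region (chromosome 2, 170730664 to 170730964) scored 2.8, 2.8 and 4.6 in 293T, K562 and LNCap, the highest LNCap score of that window. The SCN2A region (chromosome 2, 165303206 to 165303421), 28.3 kb from the window centre, scored 2.1, 3 and 3. The VGF regions (chromosome 7) lay at 101053676 to 101053784, 101316623 to 101316801 and 101351001 to 101351351. The first of these scored 3.1, 3 and 2.3 and held 1 of the 2 K562 silencers that share the highest finite score of that window. At GRIA2 the region lay at 157514231 to 157514441 on chromosome 4, and at UNC13A at 17876368 to 17876718 on chromosome 19. K562 and LNCap alone shared 90 regions (5.95%, against 5.11% genome-wide), 16 of them at CELSR3, 12 at UNC13A and 11 at VGF. 293T shared 14 regions with K562 alone (0.926%, against 0.764% genome-wide) and 14 with LNCap alone (0.926%, against 0.856%).

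In each window the 10 kb stretch with most silencers over the 3 lists was taken. At UNC13A, 13 silencers lay between 17634751 and 17642301, of which 2 were from 293T, 2 from K562 and 9 from LNCap. VGF also had 13, in the first of 2 equally full stretches (101249701 to 101259701), 9 from K562 and 4 from LNCap. CELSR3 (48606981 to 48615656) and GRIN1 (137286865 to 137292647) had 12 each, split as 4 and 8 at CELSR3 and 7 and 5 at GRIN1 between K562 and LNCap. These stretches at VGF, CELSR3 and GRIN1 held no 293T silencer. The fullest stretch at SNAP25 and the first of 4 equally full ones at BDNF held none either. The other equally full VGF stretch did hold 293T silencers, between 186.976 and 193.801 kb from the centre. Other equally full BDNF stretches held them too, such as at -213.724 and -208.824 kb. At VGF and BDNF the lack of 293T therefore depended on taking the first stretch. How often such stretches lack 293T over the genome was not counted. At the other end, the fullest stretches of the BDNF window held 5 silencers and those of the STMN2 and KCNH2 windows 6.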

How the data were processed

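Reads of Ss-STARR-seq libraries were handled with Bowtie2 and SAMtools on hg38, per the submitters' processing notes. The caller, its thresholds and the pooling of libraries are not stated in the sources used here. The authors deposited 1 list per line with chromosome, start, end and an activity score, per the file headers. The scale of that score is not stated and no score lies below 2. Broken lines, unknown chromosomes and widths over 5000 bp were left out (58, 12 and 25 lines for 293T, K562 and LNCap). Positions are as deposited.

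Genome density is list size over the highest ends of all chromosomes (3086 Mb, gaps in the assembly included). Share ratios divide a list's share by the mean share of the other lists; their exact binomial intervals pool those lists. Overlap was at least 1 bp. Without replicate lists no test between lines was made. Silencers were named by rule: highest score per window, regions in all 3 lists and fullest 10 kb stretch. The one nearest to the window centre was also named, in place of the gene start. Strong silencers shared between lists, and the infinite score, were picked after values were seen. The members and lists were chosen with earlier results of these data known. Counting was tested on simulated data. Analyses of gene starts, gene bodies and RE1 were planned and not run, since the reference tables at hand were those of the labelled organism, mouse. Tables and intervals were made with scipy 1.17.1, pandas 2.3.3 and numpy 2.4.6 under Python 3.11.15, and plots with matplotlib 3.10.9.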

Additional observations from a re-analysis of the deposited data

How the results depend on the processing

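Over all alternatives, 98 values stayed within the counting interval of the main value or, for counts of windows, within 1.5 times, and 19 did not. Alternatives without the UNC13A, VGF and CELSR3 windows, with the middle 200 kb and with only the windows of named genes were chosen after seeing the data. Without those 3 windows the density relative to the whole list was 1.21 (293T), 1.18 (K562) and 1.17 (LNCap), and the share ratios changed side, from 0.882 to 1.02 (293T), 1.08 to 0.993 (K562) and 1.05 to 0.982 (LNCap). Overlap relative to the whole list also fell below 1 for 5 of 6 pairs, at 0.871 (293T in K562), 0.882 (293T in LNCap), 0.904 (K562 in 293T), 0.914 (LNCap in 293T) and 0.981 (LNCap in K562), and was 1.03 for K562 in LNCap. Against the same chromosome the density was 1.41 in K562 and 1.39 in LNCap; the middle 200 kb gave 1.41 in K562. Leaving out each window in turn gave share ratios of 0.831 to 0.939 for 293T, 1.04 to 1.12 for K562 and 1.02 to 1.09 for LNCap. With folds of 1.5 and 0.67, windows over and under the fold numbered 2 and 5 for 293T (16.2% and 14.3% of tiles). They numbered 1 and 1 for K562 (5.57% and 10.3%) and 2 and 2 for LNCap (7.43% and 13.1%). Among silencers above the list's median score, 5 windows were under 0.5 times in 293T (10.4% of tiles). In LNCap 2 windows were over 2 times (4.23% of tiles). Window overlap relative to the whole list then rose from 1.21 to 1.96 (293T in K562) and from 1.23 to 2.74 (293T in LNCap). Counted from the other side, the same overlaps gave 1.76 (K562 in 293T, from 1.07) and 2.37 (LNCap in 293T, from 1.1). The cause was not tested. No paired analysis was possible because each line has 1 list and no replicate. Read depth is unknown, so weak silencers missed in a list cannot be told apart from absent ones.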

Other observations

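Among silencers scoring above their list's median, the overlap of 293T with LNCap was more frequent in the windows than over the lists. Of 212 such 293T silencers, 16 overlapped a LNCap silencer that was also above its median (7.55%, Wilson interval 4.70 to 11.9), against 2.76% of 54754 over the list. They lay in 10 of the 15 windows, and the share of tiles with such an overlap was not counted. Without UNC13A, VGF and CELSR3, 8 silencers overlapped (5.23%, 2.67 to 9.98), an interval that includes the value of the whole list. Overlap of 293T with K562 was 10 of 212 (4.72%, 2.58 to 8.46) against 2.41%, and 6 silencers without the 3 windows (3.92%, 1.81 to 8.29), an interval that also includes 2.41%. K562 in 293T was 3.68% (2.01 to 6.63) against 2.09%, inside the interval. LNCap in 293T was 5.23% (3.24 to 8.32) against 2.21%, and 4.28% (2.18 to 8.21) without the 3 windows, where the interval includes 2.21%. For K562 in LNCap the share was 13.97% (10.3 to 18.6) against 13.3%, and the interval includes the value of the whole list. Both directions of a pair count the same overlaps from either side and are not independent. This pattern came out of an alternative setting, rests on few silencers and was not tested.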
